A study of Mus musculus with 2 samples.

Results

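The genes described here encode the 4 classical families of guidance cues and their receptors, namely ephrins with EPH receptors, semaphorins with plexins, SLITs with ROBO receptors, and netrins with DCC, neogenin and UNC5 receptors. The rule that selects them reads the gene symbol and no measured value, and 67 of the 24062 genes in the count tables matched. Of these, 57 had at least 1 count in either library, 54 had at least 20 counts over both and are called measured, and 10 were at 0 in both.

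Guidance cues were first studied in growing axons, which they attract or repel. Outside the nervous system they shape blood vessels. In mouse embryos ephrin-B2 marks arterial and EphB4 venous endothelium, plexin D1 on endothelium reads class 3 semaphorins, and UNC5B restrains vessel sprouting. Mesenchyme and its derivatives make many of the same cues, so a set of such genes reports on several cell types of an embryonic aorta.

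RNA was sequenced from aortic cells of C57BL6 embryos at embryonic day 11 that were CD31+ and KITint, a gate that both groups share, and that the labels call haematopoietic progenitor cells. All carried Gata2Venus, a reporter whose Venus fluorescence reports on the transcription factor gene Gata2. The cells were sorted by it into Gata2Venus-negative cells (below, Venus-negative), with 1 library, and Gata2Venus-positive cells (Venus-positive), with 1 library. The labels do not say how many embryos were pooled. The comparison asks how reporter-negative progenitors differ from reporter-positive ones, and with 1 library per group it has no replicate check, no test and no p-value.

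The Venus-negative library held 10135400 counts in genes and the Venus-positive library 9715131. Gata2 had 141 counts in Venus-negative and 664 in the Venus-positive library, the direction of the sort. Of the genes behind the shared gate, Kit was called higher, with 2072 counts in Venus-negative and 574 in the Venus-positive library (3.28-fold, log2 fold change 1.71, interval 1.58 to 1.85), and Pecam1, which encodes CD31, was not called (5593 and 4627 counts). Of the 8 blood progenitor markers, Spn and Gfi1 were at 0 in both libraries, Myb and Gfi1b were at 0 in the Venus-negative library, and 6 were measured, 4 of them lower in the Venus-negative library and 0 higher. Their summed level was 96.0 CPM (counts per 1000000 in genes, with library sizes scaled by TMM factors) in Venus-negative and 288 CPM in the Venus-positive library. The 10 endothelial markers summed to 2353 and 5121 CPM, with 6 lower and 0 higher in the Venus-negative library and none at 0. The 6 markers of veins and lymphatics summed to 922 and 1532 CPM, with 3 lower and 0 higher. The 14 markers of mesenchyme and smooth muscle summed to 9023 and 5727 CPM, with 8 higher and 0 lower, and Twist1 at 0 in the Venus-positive library. The 8 markers of epithelium and mesothelium summed to 492 and 368 CPM, with Epcam (4.39-fold) and Cdh1 (2.79-fold) higher, 0 lower, and Msln at 0 in the Venus-negative library. The 9 macrophage markers in the tables summed to 202 and 940 CPM, with 7 lower and 0 higher, and Timd4 at 0 in the Venus-negative library. The 10 markers of neural crest and neurons summed to 14.1 and 51.7 CPM, with Sox10, Foxd3, Th and Tubb3 at 0 in both libraries. The part of these marker differences in the results for the guidance genes below was not tested. In bulk RNA, fewer cells of a type and less RNA per cell cannot be told apart.

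Over all 67 guidance genes, the summed level was close in the libraries, at 2442 CPM in Venus-negative and 2335 CPM in the Venus-positive library, while its makeup differed. A gene was called when the exact 95% interval of its fold change was entirely outside 2-fold and its higher library gave it at least 10 CPM and 50 counts. By this rule 16 of the 54 measured members (29.6%) were higher in the Venus-negative library, where 12.6% of 12544 measured genes were, and 7 members (13.0%) were lower, where 12.3% of all measured genes were. The share of members called higher thus lay above the background, and the share called lower lay near it. The median log2 fold change of negative over positive was 0.51 over the 54 members and −0.01 over all measured genes. Without members at 3 counts or fewer in either library, 46 were left and the median was 0.74. Among the 29 members with a mean level of 10 to 50 CPM the median was 0.86, against −0.03 for 4743 genes of that level, and the 3 members above 200 CPM had a median of −1.04, against 0.02 for 902 genes. Members share reads of the same 2 libraries and are not replicates. The intervals cover counting error only, and since the cDNA was amplified without tags for single molecules, they may be narrower than the true error.

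**Figure D1:**
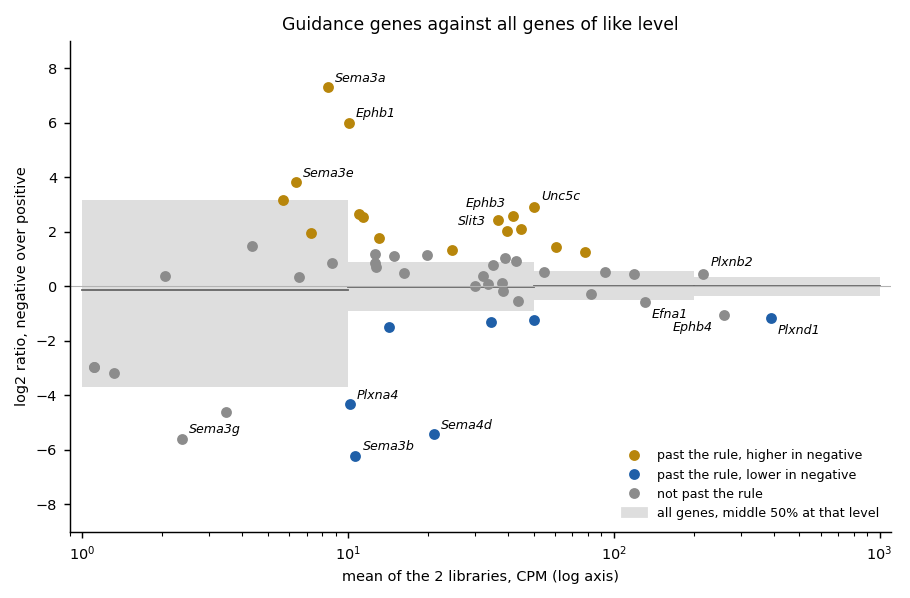
The log2 fold change of negative over positive is plotted against the mean CPM of the 2 libraries (log axis) for the 54 measured guidance genes, with the middle 50% (grey band) and median (line) of all genes of that level. Most called genes of 10 to 100 CPM lie above the band, while Ephb4 and Plxnd1, of high level, lie below it.

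A few receptors and ephrin-A1 carried much of the signal. Per kilobase of exon, Efna1 led in both libraries, at 57.4 CPM per kb in Venus-negative and 85.5 CPM per kb in the Venus-positive library, followed by Ephb4 (36.5 and 75.1 CPM per kb) and Plxnd1 (33.2 and 73.5 CPM per kb). Efna4 was at 32.8 CPM per kb in Venus-negative and 16.2 CPM per kb in the Venus-positive library. Efna1, Ephb4, Plxnd1 and Plxnb2 made up 31.4% of all guidance counts in Venus-negative and 52.4% in the Venus-positive library.

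Paralogues lay on both sides of equal levels in several families, among them the EPHA, EPHB, UNC5 and ROBO receptors and the A-type plexins. The 250 bases before the RefSeq start site are printed for a pair of EPHB and a pair of UNC5 genes, as examples of paralogues whose fold changes differ in sign (build GRCm38.p6, 5′ to 3′ on the gene's strand). Capitals mark matches to 3 motifs, searched on both strands. The GATA motif is GATA with A or T before it and A or G after it, the RUNX motif is TGNGGT with T or C for N, and the ETS motif is CCGGAA. Ephb3 and Unc5c were called higher in the Venus-negative library, Unc5b was lower there, and Ephb4 had a lower value without being called.
Ephb3, chr16:21204545-21204794, plus strand: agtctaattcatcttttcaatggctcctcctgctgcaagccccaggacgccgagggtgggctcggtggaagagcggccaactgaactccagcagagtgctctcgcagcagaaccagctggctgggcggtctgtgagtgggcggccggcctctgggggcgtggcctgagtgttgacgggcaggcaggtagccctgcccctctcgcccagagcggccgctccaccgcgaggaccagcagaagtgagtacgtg
Ephb4, chr5:137349859-137350108, plus strand: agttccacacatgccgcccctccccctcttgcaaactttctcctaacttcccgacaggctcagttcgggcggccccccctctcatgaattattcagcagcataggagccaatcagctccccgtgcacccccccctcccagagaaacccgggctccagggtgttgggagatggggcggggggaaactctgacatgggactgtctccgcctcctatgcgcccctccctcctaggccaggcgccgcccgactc
Unc5c, chr3:141465314-141465563, plus strand: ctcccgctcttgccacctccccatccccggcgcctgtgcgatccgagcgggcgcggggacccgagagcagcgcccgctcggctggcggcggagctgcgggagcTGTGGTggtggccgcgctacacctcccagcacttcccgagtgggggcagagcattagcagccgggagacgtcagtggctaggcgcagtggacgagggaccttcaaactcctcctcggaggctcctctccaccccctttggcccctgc
Unc5b, chr10:60831582-60831831, minus strand: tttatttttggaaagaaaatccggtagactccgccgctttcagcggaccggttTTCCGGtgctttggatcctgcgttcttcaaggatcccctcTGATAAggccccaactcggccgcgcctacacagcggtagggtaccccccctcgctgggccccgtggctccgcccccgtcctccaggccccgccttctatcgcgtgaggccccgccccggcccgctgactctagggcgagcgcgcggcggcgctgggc
The Unc5b window held 1 GATA match, TGATAA at base 94, and 1 ETS match on the other strand at base 54. Unc5c held 1 RUNX match at base 104, and neither EPHB window held a match. No matches overlapped. Over 32851 promoters cut to the same length, 26.5% held a GATA match, 18.6% a RUNX match and 12.0% an ETS match. Promoters were at hand for 19 of the 23 called members, some with several start sites. Of 20 promoters of members higher in the Venus-negative library 4 held a GATA match, and of 6 promoters of members lower there 2 did. A match is a run of letters and not a site shown to be bound.

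Ephrins, the membrane-bound ligands, summed to 365 CPM in Venus-negative and 332 CPM in the Venus-positive library. None of the 8 was lower by the rule, 2 were higher and 6 were not called. Efna2, which encodes a GPI-anchored ephrin-A, had 107 counts in Venus-negative and 11 in the Venus-positive library, or 10.3 and 1.16 CPM, and was 8.84-fold higher (log2 fold change 3.14, interval 2.25 to 4.19). Efna3 had 120 and 28 counts, 3.89-fold higher (log2 fold change 1.96, interval 1.36 to 2.61). Both lie just above the level that the rule asks for. Efna4 was at 52.4 and 25.9 CPM, 2.02-fold, with an interval that reached below 2-fold (log2 fold change 1.02, interval 0.80 to 1.24). Efna1, a ligand of EphA2 on endothelium, went the other way at 105 and 156 CPM without being called (log2 fold change −0.57, interval −0.69 to −0.46). Efna5 had 312 counts in Venus-negative and 284 in the Venus-positive library, and its interval included equal levels (−0.24 to 0.23). Efna1 made up 50.2% of ephrin-A counts in the Venus-negative library (exact binomial 95% interval 48.1 to 52.3) and 72.3% in the Venus-positive library (70.3 to 74.2).

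The ephrin-B genes, whose products have a cytoplasmic tail that signals into the ligand-bearing cell, had no member called. They summed to 156 CPM in Venus-negative and 115 CPM in the Venus-positive library (log2 fold change 0.44, interval 0.33 to 0.55), and the ephrin-A genes to 209 and 216 CPM (−0.05, interval −0.14 to 0.04). Efnb2, the arterial ephrin, was at 35.9 and 40.5 CPM and its interval included equal levels (log2 fold change −0.17, interval −0.38 to 0.04). Efnb1 was at 56.0 and 29.6 CPM (log2 fold change 0.92, interval 0.71 to 1.13) and Efnb3 at 64.2 and 45.0 CPM (log2 fold change 0.51, interval 0.33 to 0.69), neither called.

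EPH receptors, the tyrosine kinases that bind ephrins, had 5 members higher and 1 lower in the Venus-negative library among 9 measured. Their summed level was 507 CPM in Venus-negative and 503 CPM in the Venus-positive library, an interval of the log2 fold change of −0.05 to 0.07, so the family differed in its members and not detectably in its total. Ephb1 (chromosome 9, 101922128 to 102354693, mm10) had 210 counts in Venus-negative and 0 in the Venus-positive library. With 0 set to 3 counts it was 63.6-fold higher (log2 fold change 5.99), and the exact interval began at 5.68. Ephb3 (chromosome 16, 21204755 to 21223305) was at 71.5 CPM (interval 66.4 to 76.8) and 12.1 CPM (9.94 to 14.5), 5.93-fold higher (log2 fold change 2.57, interval 2.28 to 2.87). Among receptors of the A class, which bind ephrin-As, Epha3 was 5.76-fold higher (203 and 32 counts), Epha7 4.23-fold (755 and 162 counts) and Epha4, which also binds ephrin-Bs, 2.71-fold (924 and 310 counts).

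Epha2 and Ephb4, both known from endothelium, had lower values in the Venus-negative library. Epha2 (chromosome 4, 141301240 to 141329384) was at 29.7 CPM in Venus-negative and 70.8 CPM in the Venus-positive library, 2.39-fold lower (log2 fold change −1.26, interval −1.45 to −1.06), and lost its call when libraries were scaled by total counts. Ephb4 (chromosome 5, 137350109 to 137378669) had 1764 and 3296 counts, or 169 CPM (interval 162 to 178) and 348 CPM (337 to 361). Its log2 fold change of −1.04 had an interval from −1.12 to −0.96 that reached inside 2-fold, so it was not called. Ephb6, a receptor without kinase activity, was at 27.3 and 12.4 CPM (log2 fold change 1.14, interval 0.83 to 1.46), and Ephb2 at 7.30 and 5.82 CPM. Epha1 had 8 counts and 0, and Epha5, Epha6, Epha8 and Epha10 were at 0 in both libraries.

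As a share of EPHB counts, which does not depend on scaling between libraries, Ephb4 made up 57.3% in the Venus-negative library (interval 55.5 to 59.1) and 92.0% in the Venus-positive library (91.1 to 92.9). Ephb3 made up 24.2% and 3.18%. Among EPHA counts Epha2 accounted for 14.1% in the Venus-negative library (interval 12.6 to 15.6) and 57.1% in the Venus-positive library (54.2 to 59.9), while Epha4 and Epha7 together with Epha3 filled most of the rest.

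**Figure D2:**
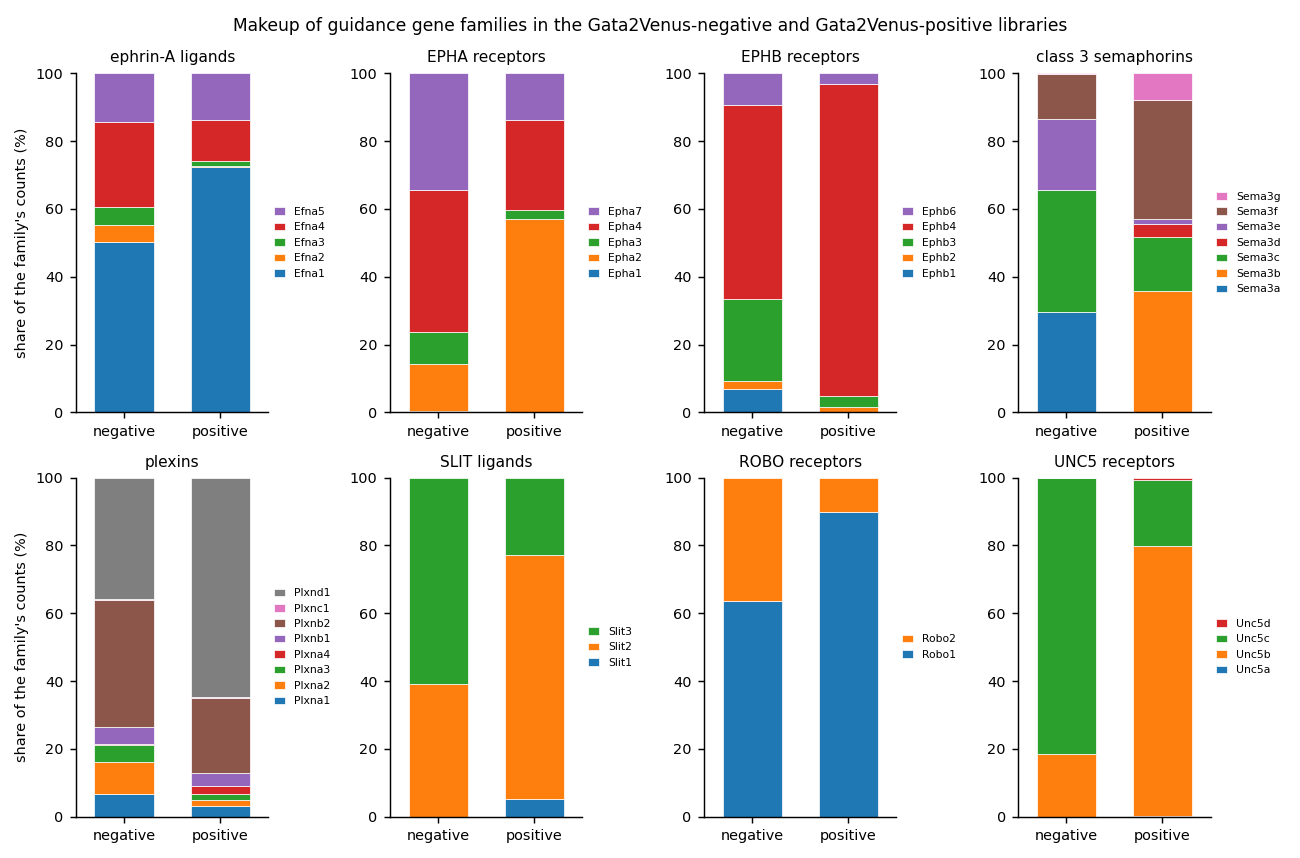
Stacked bars give each gene's share of its family's counts (%) in the Gata2Venus-negative (left) and Gata2Venus-positive (right) library, for 8 families. Ephb4, Epha2, Plxnd1, Robo1 and Unc5b take a larger share in the Venus-positive library, and among class 3 semaphorins Sema3a, Sema3c and Sema3e take a larger share in the Venus-negative library, Sema3b and Sema3f in the Venus-positive one.

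Class 3 semaphorins, secreted ligands that act through neuropilins and plexins, were near the same total, at 56.6 CPM in Venus-negative and 59.7 CPM in the Venus-positive library, but were split by member. Of 7 measured genes 2 were higher, 2 lower and 3 not called. Sema3a (chromosome 5, 13125414 to 13602565), which repels axons and endothelial cells through neuropilin-1, had 174 counts in the Venus-negative library and 1 in the Venus-positive library (log2 fold change 7.30, interval 4.81 to 12.62). Sema3e (chromosome 5, 14025276 to 14256689), the ligand that binds plexin D1 directly, had 124 and 8 counts and was 14.1-fold higher (log2 fold change 3.82, interval 2.79 to 5.06). Sema3c, which guides neural crest cells to the outflow tract, was at 20.4 and 9.52 CPM (log2 fold change 1.10, interval 0.74 to 1.47), not called.

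Sema3b and Sema3f, ligands of neuropilin-2 among others, were lower. Sema3b (chromosome 9, 107597674 to 107609229) had 0 counts in Venus-negative and 202 in the Venus-positive library. It was 74.1-fold lower when 0 is set to 3 counts, with an exact interval that ended at a log2 fold change of −5.90. Sema3f (chromosome 9, 107681500 to 107710475) was at 7.49 and 21.04 CPM, 2.81-fold lower (log2 fold change −1.49, interval −1.89 to −1.11). Sema3g had 1 and 44 counts and Sema3d 0 and 21, both under the level the rule asks for. Sema3b and Sema3f lie 72.3 kb apart and both were lower, and Sema3a and Sema3e, 423 kb apart on chromosome 5, were both higher, but Sema3d, 536 kb from Sema3a, had counts in the Venus-positive library alone. In the ephrin-A cluster of chromosome 3, Efna3 and Efna4 lie 10.4 kb apart with log2 fold changes of 1.96 and 1.02, and Efna1, 32.8 kb from Efna3, had −0.57.

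Membrane-bound semaphorins of classes 4 to 7 had 2 members higher and 1 lower in the Venus-negative library among 12 measured. Sema4d (chromosome 13, 51685529 to 51793747), the semaphorin of lymphocytes and platelets that binds plexin B1, had 10 counts in Venus-negative and 389 in the Venus-positive library. That put it at 0.961 and 41.1 CPM, 42.8-fold lower (log2 fold change −5.42, interval −6.49 to −4.53). Sema4b (chromosome 7, 80186841 to 80226527) was at 19.02 and 3.07 CPM, 6.20-fold higher (log2 fold change 2.63, interval 2.07 to 3.25). Sema6a, a transmembrane ligand of A-type plexins, was at 109 and 46.5 CPM, 2.35-fold higher (log2 fold change 1.23, interval 1.07 to 1.40).

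The other membrane-bound semaphorins that reached 10 CPM were not called. Sema6d was at 138 and 99.9 CPM (log2 fold change 0.46, interval 0.34 to 0.58), and Sema4c, a ligand of plexin B2, at 74.5 and 90.5 CPM (log2 fold change −0.28, interval −0.42 to −0.14). Sema5a was at 36.1 and 28.1 CPM, Sema5b at 16.3 and 8.99 CPM, Sema6c at 15.8 and 9.73 CPM, and Sema4a at 11.1 and 6.24 CPM, with log2 fold changes between 0.36 and 0.86. Sema4g had 67 and 22 counts. Sema6b had 0 and 66 counts and Sema7a, the GPI-anchored member, 0 and 21, both under the level of the rule. Sema4f was at 0 in both libraries.

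Plexins, the semaphorin receptors, had a lower summed level in the Venus-negative library, at 675 CPM against 828 CPM in the Venus-positive library. Most members did not share that direction. Of 8 measured, 6 had a log2 fold change above 0 (median 0.41), and 2 were called higher and 2 lower. Plxnd1 (chromosome 6, 115954811 to 115995005), the plexin of vascular endothelium, had 2520 and 5078 counts, or 242 CPM (interval 233 to 252) and 537 CPM (522 to 552). It was thus 2.22-fold lower (log2 fold change −1.15, interval −1.22 to −1.08). Plxna4 (chromosome 6, 32144268 to 32588192) had 10 and 183 counts, 20.1-fold lower (log2 fold change −4.33, interval −5.42 to −3.42). Plxna2 was at 63.9 and 15.6 CPM, 4.08-fold higher (log2 fold change 2.03, interval 1.77 to 2.30), and Plxna3 at 35.4 and 13.96 CPM, 2.54-fold higher (log2 fold change 1.34, interval 1.05 to 1.64). The A-type plexin genes, whose products pair with neuropilins, thus had members on both sides.

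Plxnb2 was the plexin gene with the most counts in the Venus-negative library, at 251 and 182 CPM (log2 fold change 0.46, interval 0.38 to 0.55), and was not called. It made up 37.2% of plexin counts in the Venus-negative library (interval 36.1 to 38.4) and 22.0% in the Venus-positive library (21.1 to 22.9), whereas Plxnd1 made up 35.9% (34.7 to 37.0) and 64.8% (63.8 to 65.9). Plxna1 was at 44.5 and 25.7 CPM (log2 fold change 0.79) and Plxnb1, the receptor of Sema4d, at 34.7 and 32.6 CPM (log2 fold change 0.09, interval −0.13 to 0.31). Plxnc1, the receptor of Sema7a, had 24 and 17 counts, and Plxnb3 was at 0 in both libraries.

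The ligand and receptor sides can be set side by side for pairs picked as examples, and some pairs went the same way. Slit3 and Robo2 were both called higher (log2 fold changes 2.44 and 1.78), as were Sema6a and the A-type plexin gene Plxna2 (1.23 and 2.03). Other receptor genes of those families had lower values, Plxna4 with a call (−4.33) and Robo1 without one (−0.54). Efna1 and Epha2 both had lower values (−0.57 and −1.26), and only Epha2 was called. The A-class receptor genes Epha3, Epha4 and Epha7 were instead called higher (2.53, 1.44 and 2.08). In other pairs the sides differed. For Sema3e and Plxnd1 the ligand gene was 14.1-fold higher and the receptor gene 2.22-fold lower in the Venus-negative library. Sema4d was 42.8-fold lower while the interval of its receptor gene Plxnb1 included equal levels. Efnb2 was likewise within counting error of equal while Ephb4, which it binds, was 2.06-fold lower without being called. The neuropilin genes, co-receptors named after their values were seen, were close in the libraries. Nrp1 was at 648 and 671 CPM and Nrp2 at 278 and 256 CPM.

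**Figure D3:**
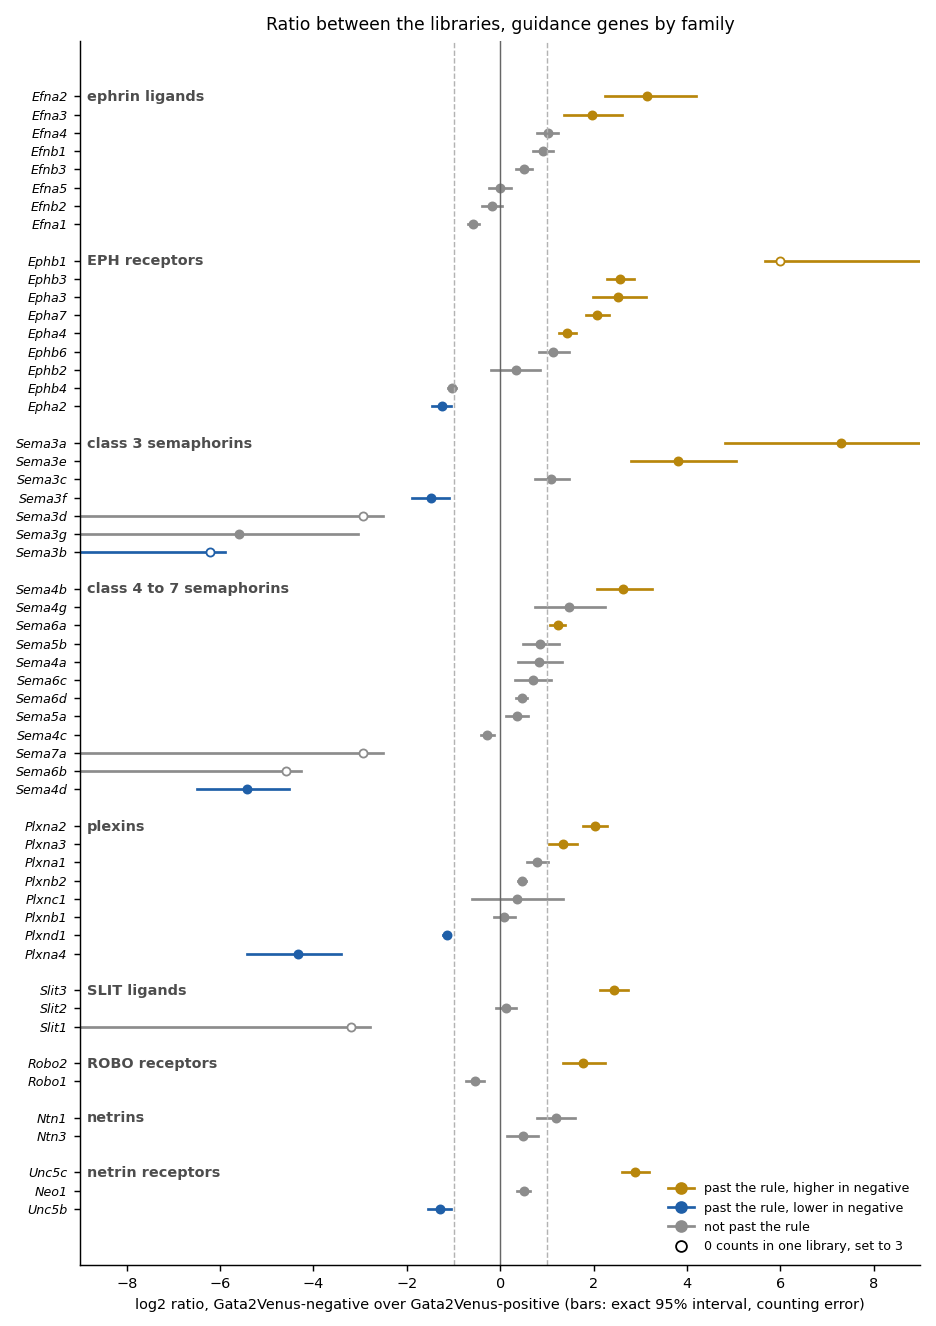
Points are log2 fold changes of negative over positive and bars their exact 95% intervals, by family, with dashed lines at 2-fold. In the EPH, semaphorin, plexin and netrin receptor families called genes lie on both sides of 0.

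SLITs, secreted ligands of ROBO receptors, were higher in total in the Venus-negative library, at 101 against 50.2 CPM in the Venus-positive library (log2 fold change of the sums 1.01, interval 0.86 to 1.17), with 1 of 3 measured members called. Slit3 (chromosome 11, 35121224 to 35708507) was at 61.9 and 11.4 CPM, 5.42-fold higher (log2 fold change 2.44, interval 2.14 to 2.75). Slit2 was at 39.6 and 36.2 CPM with an interval that included equal levels (−0.08 to 0.34). Slit1 had 0 and 25 counts. Slit3 made up 61.0% of SLIT counts in the Venus-negative library (interval 58.0 to 63.9) and 22.7% in the Venus-positive library (19.0 to 26.8).

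Of the ROBO receptors, Robo2 (chromosome 16, 73891839 to 74411825) was at 20.4 and 5.92 CPM, 3.44-fold higher (log2 fold change 1.78, interval 1.35 to 2.23). Robo1, the ROBO gene of the list with the most counts, was at 35.5 and 51.7 CPM and was not called (log2 fold change −0.54, interval −0.74 to −0.34), and Robo3, a receptor of commissural axons, was at 0 in both. Robo4, the endothelial family member that the symbol rule leaves out, was at 112 and 132 CPM and was not called, and was named after its values were seen.

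Netrins had no member called. Ntn1, the founding secreted netrin, was at 17.6 and 7.72 CPM (log2 fold change 1.19, interval 0.79 to 1.60) and Ntn3 at 18.9 and 13.5 CPM (log2 fold change 0.48, interval 0.16 to 0.82). Ntn4 and Ntn5 were at 0 in both libraries, as was Dcc, the receptor through which netrin-1 attracts axons.

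Netrin receptors of the UNC5 family, which mediate repulsion, differed in direction. Unc5c (chromosome 3, 141465216 to 141834924) had 921 counts in Venus-negative and 113 in the Venus-positive library, which is 88.5 CPM (82.8 to 94.4) and 11.9 CPM (9.85 to 14.4). It was 7.40-fold higher (log2 fold change 2.89, interval 2.61 to 3.18). Unc5b (chromosome 10, 60762593 to 60831581), the UNC5 of endothelium, was at 19.98 and 49.2 CPM, 2.46-fold lower (log2 fold change −1.30, interval −1.54 to −1.06), and lost its call under scaling by total counts. Unc5c thus made up 81.6% of UNC5 counts in the Venus-negative library (interval 79.2 to 83.8) and 19.4% in the Venus-positive library (16.2 to 22.8). Neo1, neogenin, which also binds repulsive guidance molecules, was at 109 and 76.7 CPM (log2 fold change 0.50, interval 0.37 to 0.64), not called. Unc5a and Unc5d had 0 counts in the Venus-negative library and 1 and 4 in the Venus-positive library.

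**Figure D4:**
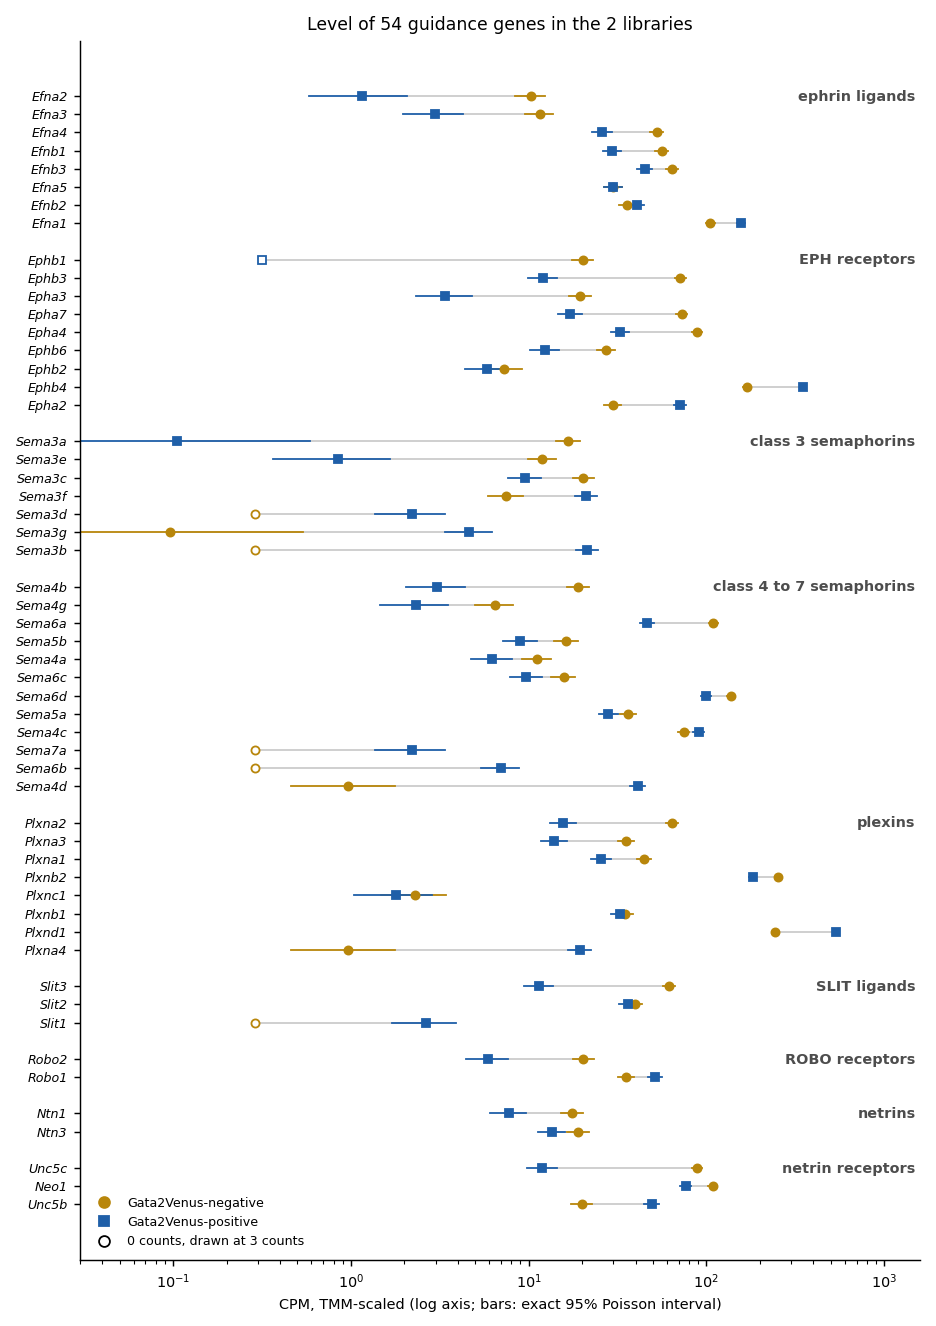
Levels of the 54 measured guidance genes in CPM (log axis) are shown by family for the Gata2Venus-negative (circles) and Gata2Venus-positive (squares) library, with exact 95% Poisson intervals. Genes such as Sema3a, Ephb1 and Sema3b are at or near 0 in one library, while the genes above 100 CPM are seen in both.

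A gene at 0 could have had up to 3 counts, 0.288 CPM in Venus-negative and 0.317 CPM in the Venus-positive library. Ephb1, Sema3a and Sema3b were the members that had 3 counts or fewer in one library against 100 or more in the other, 5.56% of those measured, and 6.32% of all measured genes showed this split. The share of members is thus near the background. Exons of 4 of the 23 called genes, Ephb1, Plxna4, Unc5c and Efna3, overlap a gene on the other strand, so their reads cannot be told from that gene's where strand was not used.

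Other genes of these pathways, which the symbol rule leaves out, were counted by the same rule. Of 74 measured, 9 (12.2%) were higher and 8 (10.8%) lower in the Venus-negative library, near the 12.6% and 12.3% of all measured genes, with a median log2 fold change of −0.23. The genes named next are single genes from these lists and not a result about the pathway. Among 9 measured co-receptors Met, the HGF receptor that associates with B-type plexins, had 111 counts and 0. With 0 set to 3 counts this was 33.6-fold higher. Erbb2, which also couples to plexin B1, was 5.70-fold higher (148 and 25.9 CPM), and Flt4, a VEGF receptor of lymphatic and venous endothelium, was 2.23-fold lower (122 and 271 CPM). Of 12 measured binding partners Rgma, a ligand of neogenin, had 110 counts and 0, 33.3-fold higher with 0 set to 3 counts. Angpt2, the angiopoietin, was 4.81-fold higher (64.5 and 13.4 CPM).

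Intracellular mediators had 5 higher (9.43%) and 7 lower genes (13.2%) in the Venus-negative library among 53 measured, with a median of −0.28, also without an excess of higher genes over the background. The 5 collapsin response mediator genes, which act downstream of semaphorin 3A, were mixed. Dpysl4, at 532 counts and 0 (161-fold with 0 set to 3 counts), and Dpysl5, at 298 and 58 (4.67-fold), were higher. Crmp1 (1443 and 2632 counts, log2 fold change −1.01), Dpysl2 (2018 and 3515, −0.94) and Dpysl3 (1275 and 1331, −0.20) had more counts and were not called. Mical1, a plexin-binding oxidase of actin, had 1181 and 130 counts and was 8.25-fold higher. The PDZ-RhoGEF gene Arhgef11 and the LARG gene Arhgef12, exchange factors that couple B-type plexins to RhoA, were lower, with 4 and 186 counts (51.2-fold) and 34 and 318 counts (10.3-fold). The adaptor gene Grb7, whose product binds EPH receptors, had 17 and 126 counts and was 8.16-fold lower.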

How the data were processed

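The authors deposited 1 table of raw whole-number counts by gene symbol for each library. Per the submitters' processing notes, TopHat, Cufflinks and HTSeq were used with build mm10, and per the labels' protocols RNA was extracted with a mirVana kit and cDNA was made by SMARTER. The versions, the annotation and the handling of strand were not given in the sources used here. Rows for reads of no gene, mainly alignments that are not unique (45.5% of the negative and 48.2% of the positive table), were left out.

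Counts were scaled by edgeR TMM factors (edgeR 4.0.16, R 4.3.3; 1.03 and 0.974). Ratio intervals are Clopper-Pearson at 95% given a gene's total, level intervals exact Poisson, computed in scipy 1.17.1 over the whole table and tested on simulated data. With 1 library per group a rule of size replaced a test. A count of 0 was set to 3 for ratios. All members past the rule or at 10 CPM were named, and of other pathway genes up to 6 per list past the rule, ranked by their interval. Members and lists were chosen with earlier results of these data known. Coordinates and exon lengths come from GENCODE vM21 (mm10), matched by symbol for all 67 members, and promoters from RefSeq GRCm38.p6, matched for 57. Alternatives were other scalings (DESeq2 1.42.0 size factors, total counts), filters, fold thresholds, thinning, an assumed spread, genes near 0 left out, and 0.5 counts added.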

Additional observations from a re-analysis of the deposited data

How the results depend on the processing

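With 16 members higher and 7 lower in the negative library, filters of 1 CPM and 10 counts and no filter gave 12 lower each (22.2% of measured members, against 18.3% of all measured genes) and still 16 higher (29.6% against 17.6%). A filter of 50 CPM left 7 higher (13.0% against 5.01%) and 2 lower (3.70% against 4.34%). An interval beyond 4-fold left 8 higher (14.8% against 5.93%) and 3 lower (5.56% against 5.99%), and an assumed between-library coefficient of variation of 0.4 left 5 higher (9.26% against 5.25%) and 3 lower (5.56% against 5.51%). These changes follow from how each setting admits genes or widens intervals. Scaling by total counts gave 16 higher (29.6% against 13.9%) and 5 lower (9.26% against 11.3%), losing Epha2 and Unc5b, and moved the median of all genes to a log2 fold change of 0.07. No direction of a called member reversed in any alternative run, and the members' median stayed between 0.49 and 0.74. Of the 23 called members Unc5c kept its call in every alternative run. No paired analysis was possible because each group has 1 library, and leaving out a library was not possible for the same reason. At this depth, a level under about 0.3 CPM rests on fewer than 3 counts.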

Other observations

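Some receptors known from endothelium were set beside the endothelial marker list. Both the comparison and the receptors in it were chosen after the values were seen. The 10 endothelial markers had a median log2 fold change of negative over positive of −1.26, with a range from −2.25 (Ecscr) to −0.38 (Kdr). Epha2 (−1.26), Unc5b (−1.30), Plxnd1 (−1.15) and Ephb4 (−1.04) lay within that range. Nrp1 (−0.05), Nrp2 (0.12), Robo4 (−0.24) and the arterial ephrin gene Efnb2 (−0.17) lay closer to equal levels than any of the 10 markers. Pecam1, the endothelial gene of the gate, is not on that list. At 0.13 it lay closer to equal levels than Robo4 and Efnb2, so not every endothelial gene was lower. Of the 8 arterial markers 4 were called lower and 1 higher. Dll4 was the one higher in the Venus-negative library (log2 fold change 1.29), and Jag1 had 0 counts there and 378 in the Venus-positive library.

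The 14 markers of mesenchyme and smooth muscle had a median of 1.34 and ranged from −0.74 (Dcn) to 7.80 (Rgs5). The 16 guidance genes called higher ran from 1.23 (Sema6a) to 7.30 (Sema3a). That marker range is wide enough to hold them all, so the comparison cannot tell their source. Whether any of these genes comes from the cells that express those markers was not tested.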
